A study of Rattus norvegicus with 18 samples.

Results

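The genes described here code for the subunits of oxidative phosphorylation that the nucleus encodes. They were taken as every gene on the array whose symbol, in the file or by transcript accession in the RefSeq annotation, begins with Nduf, Uqcr, Atp5, Cox4, Cox5, Cox6, Cox7 or Cox8, or is Sdha, Sdhb, Sdhc or Sdhd. The rule found 80 genes on 94 probes, of 15502 named genes on 41012 probes. Of these, 71 are subunits of the complexes, and the other 9 share only the symbol or assist the complexes. The 9 are the complex I assembly factors Ndufaf1, Ndufaf3, Ndufaf4 and Ndufaf7, the ATP synthase inhibitor Atp5if1, the supercomplex factor Cox7a2l, the pseudogene Cox6c-ps1, and Dmac2l and Emc8, which the file still calls Atp5s and Cox4nb. Each gene is represented by its brightest probe, which was the only one for 70 genes.

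Oxidative phosphorylation runs in the inner mitochondrial membrane. Complex I takes electrons from NADH and complex II takes them from succinate, complex III hands them on to cytochrome c, complex IV passes them to oxygen, and the proton gradient that complexes I, III and IV build drives ATP synthase. The cortex depends on this route for nearly all of its ATP, and the occlusion of an artery cuts off the oxygen that complex IV needs. The catalytic subunits of complex IV and several membrane subunits of complex I are encoded by mitochondrial DNA and are not analysed here.

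RNA came from brain cortex of male Crl:CD(SD)BR rats of 250 to 280 g, an outbred Sprague Dawley stock. The rats had a sham operation with no treatment, or middle cerebral artery occlusion (MCAO, an artery blockage used as a model of stroke) with saline or with erythropoietin (EPO, the hormone that drives red cell production). Tissue was taken 2 h or 6 h after MCAO, which gives 6 groups of 3 one-colour arrays. The dose of EPO and the length of the occlusion are not given in the sources used here, no group of sham rats received saline or EPO, and the labels do not state whether the replicates are separate animals, so p-values measure the spread between these samples. Signal levels below are log2 signal minus the 75th percentile of the array, and a difference of 1 in them is a doubling.

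The arrays were not alike. On 6 of the 18 arrays the slope of the spike-in controls, read by the scanner software, lay between 0.914 and 0.941, and on the other 12 between 0.788 and 0.866. The steep arrays had fewer probes well above background, 61.5% to 66.4% against 68.6% to 80.6%. They were replicate 1 of the saline group and of the EPO group at 2 h, replicate 1 of sham, replicates 1 and 3 of saline and replicate 3 of EPO at 6 h. Markers of the labelled tissue were present, since all 11 neuronal, 8 astrocyte and 11 oligodendrocyte markers listed were tested. All 10 markers of striatal neurons were measured well above background on every array too. At 6 h 8 of them were higher with EPO than in sham (median 0.69), where 8.22% of all genes tested were higher. With saline 3 of the 10 were higher than in sham (median 0.59), where 6.18% of all genes tested were. The part of striatal neurons in the results below was not tested.

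Promoter windows from RefSeq (assembly GRCr8) matched 70 of the 80 genes. Each window runs from 250 bases before the annotated start to 50 bases after it, and 3 motifs of regulators known for respiratory chain genes were searched on both strands. The core letters of the NRF-1 site, GCATGCGC, occurred in 10 of the 70 windows (14.3%), against 2.66% of all 27457 windows and 4.45% of the 10170 windows of genes tested on the arrays. The ETS core CCGGAAG, which GABPA and related factors bind, occurred in 22 (31.4%), against 9.22% and 15.3%. The YY1 core AAGATGGC occurred in 13 (18.6%), against 3.44% and 4.77%. At least 1 of the motifs occurred in 34 of the 70 windows (48.6%), against 14.1% and 22.2%. NRF-1 matches on opposite strands can overlap each other. The genes that fell with EPO between 2 and 6 h, described below, held the NRF-1 core in 0 of 14 windows, the ETS core in 3 and the YY1 core in 2, and the other 56 genes held them in 10, 19 and 11. A match is a description of the letters and not a site of binding.

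The 250 bases before the start are shown for Cox6a2 and Ndufs4, which passed the threshold in 2 comparisons, for Ndufs8, Cox7a2 and Uqcrh, which fell and hold an ETS core, and for Sdhb and Atp5po, which hold the NRF-1 core and did not pass. They were chosen after these values were seen, and none overlaps another annotated gene. They are read 5′ to 3′ along the gene, and capitals mark the motif letters. The windows are chr1:192219717-192219966 (minus strand), chr2:47794915-47795164 (minus strand), chr1:210573699-210573948 (minus strand), chr8:89601150-89601399 (minus strand), chr5:134790883-134791132 (minus strand), chr5:158547684-158547933 (plus strand) and chr11:44657484-44657733 (minus strand), in the order of the lines.
Cox6a2: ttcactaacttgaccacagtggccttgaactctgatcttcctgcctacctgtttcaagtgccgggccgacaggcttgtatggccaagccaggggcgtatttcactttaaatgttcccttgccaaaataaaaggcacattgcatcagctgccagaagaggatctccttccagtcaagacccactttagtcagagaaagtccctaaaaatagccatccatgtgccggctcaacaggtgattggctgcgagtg
Ndufs4: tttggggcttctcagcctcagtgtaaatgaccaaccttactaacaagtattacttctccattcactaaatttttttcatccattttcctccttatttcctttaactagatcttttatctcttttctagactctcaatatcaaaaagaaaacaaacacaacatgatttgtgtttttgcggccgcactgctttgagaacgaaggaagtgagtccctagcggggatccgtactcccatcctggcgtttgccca
Ndufs8: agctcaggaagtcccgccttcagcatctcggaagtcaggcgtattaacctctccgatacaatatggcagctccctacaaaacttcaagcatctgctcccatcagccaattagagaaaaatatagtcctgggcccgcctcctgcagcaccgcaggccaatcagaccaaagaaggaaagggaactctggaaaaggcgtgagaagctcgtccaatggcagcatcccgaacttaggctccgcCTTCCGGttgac
Cox7a2: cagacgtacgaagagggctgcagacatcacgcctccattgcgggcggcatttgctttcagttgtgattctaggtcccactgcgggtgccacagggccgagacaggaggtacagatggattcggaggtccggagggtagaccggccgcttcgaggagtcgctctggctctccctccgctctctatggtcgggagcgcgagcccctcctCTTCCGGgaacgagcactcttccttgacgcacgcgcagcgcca
Uqcrh: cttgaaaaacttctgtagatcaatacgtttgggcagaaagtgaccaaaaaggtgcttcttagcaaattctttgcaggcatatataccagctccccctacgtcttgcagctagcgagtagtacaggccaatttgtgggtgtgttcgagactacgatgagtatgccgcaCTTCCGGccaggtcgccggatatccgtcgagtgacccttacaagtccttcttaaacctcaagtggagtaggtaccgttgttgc
Sdhb: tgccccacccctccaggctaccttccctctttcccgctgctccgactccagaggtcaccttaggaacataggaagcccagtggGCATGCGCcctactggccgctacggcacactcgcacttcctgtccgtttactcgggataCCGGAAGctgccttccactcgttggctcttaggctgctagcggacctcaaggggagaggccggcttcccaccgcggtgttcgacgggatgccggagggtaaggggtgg
Atp5po: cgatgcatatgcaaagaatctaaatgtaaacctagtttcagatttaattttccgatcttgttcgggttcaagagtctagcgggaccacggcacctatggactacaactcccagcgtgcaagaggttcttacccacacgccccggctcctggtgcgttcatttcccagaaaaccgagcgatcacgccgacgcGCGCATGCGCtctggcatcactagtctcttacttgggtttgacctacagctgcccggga
The ETS core begins 12 bases before the start in Ndufs8, 43 in Cox7a2 and 83 in Uqcrh. Sdhb holds the NRF-1 core 167 and the ETS core 108 bases before its start, and Atp5po holds overlapping NRF-1 matches from 59 bases before its start. None of the letters searched stand in the stretches shown of Cox6a2 and Ndufs4. The windows of Ndufs4 and Atp5po each hold 1 YY1 core that does not lie within the 250 bases shown.

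Nearly all of these genes were measured well. Of the 80, 77 could be tested, and 76 were well above background on all 18 arrays. Uqcrq, a small subunit of complex III that the file calls Qpc, and Cox6b1, the linker subunit between complex IV monomers, were well above background on only 2 arrays each. Cox8c, the isoform of the smallest complex IV subunit found in testis, was above it on none. The 77 genes varied little between replicates, with a median within-group SD of 0.0847 log2 units against 0.134 over the 12538 genes tested. The least steady were Cox6c-ps1, above background on 12 arrays, and the tissue isoforms Cox6b2 and Cox8b. The heat map shows each gene's deviation from its own mean.

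**Figure D1:**
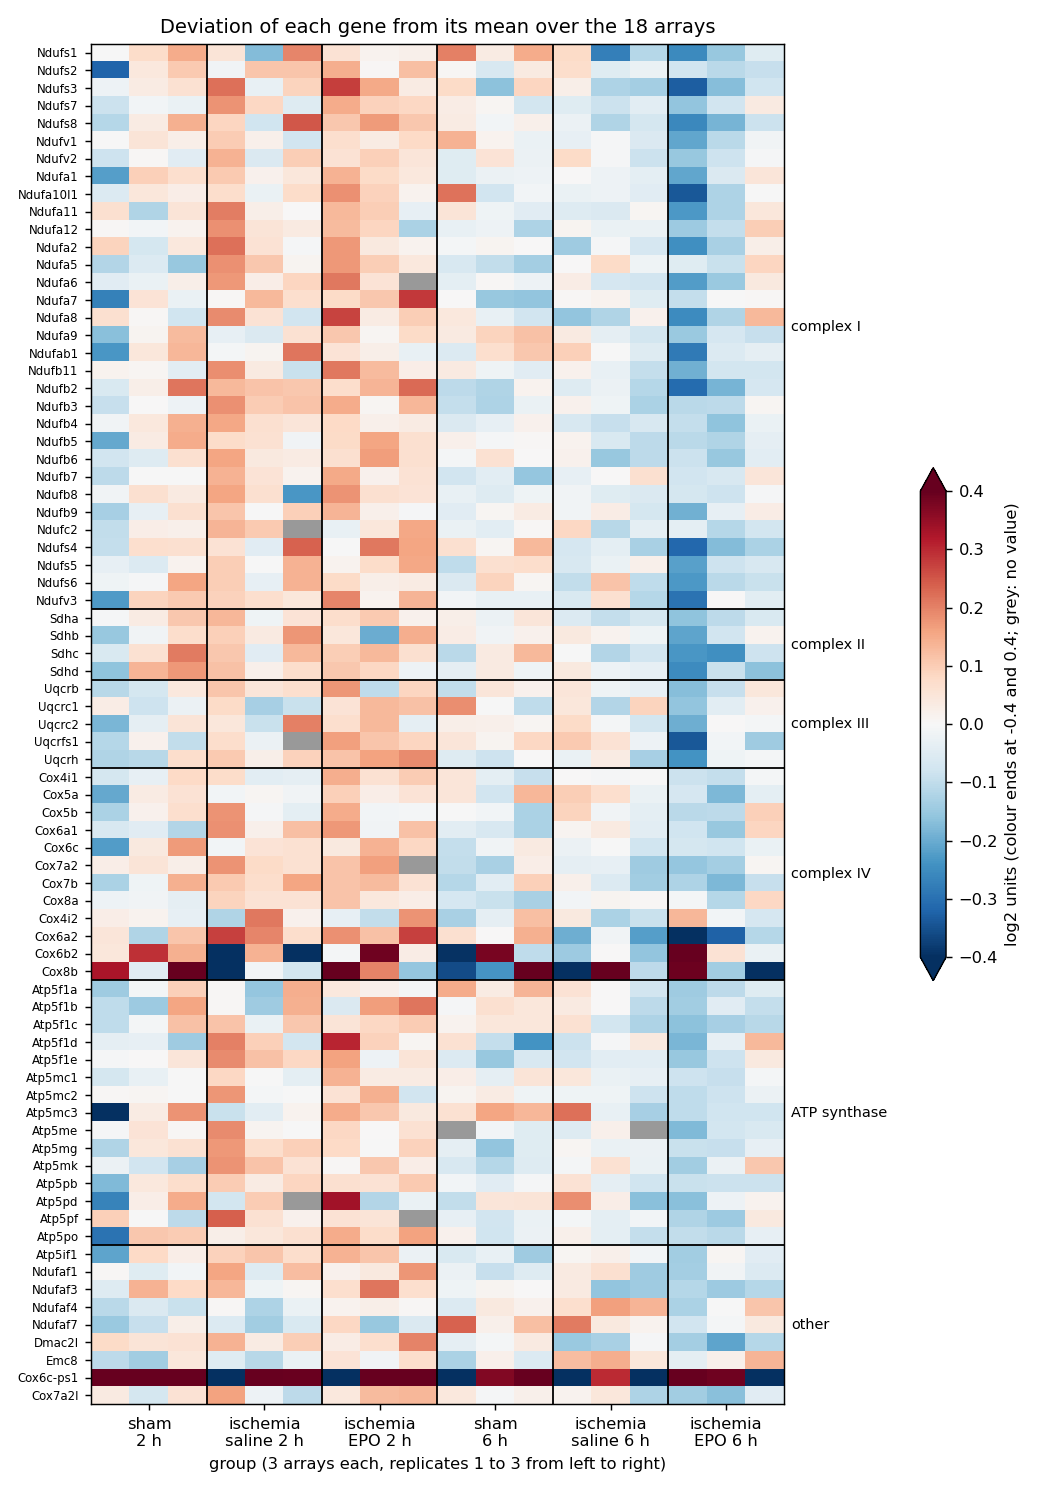
Rows are the 77 genes tested, by complex, and columns are the 18 arrays in groups of 3. Colour gives the log2 deviation from the gene's mean over all arrays, cut at -0.4 and 0.4, and grey marks arrays without a value. The EPO group at 2 h is mostly above the mean and the EPO group at 6 h mostly below it, most clearly its replicate 1.

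Saline-treated ischemia against sham compares the occlusion together with saline to an untreated sham operation, so the 2 cannot be told apart. At 2 h 0 of the 77 genes passed an adjusted p of 0.05 in limma's test, where 1.62% of all genes tested passed. An unadjusted p under 0.05 was reached by 5 of the 77 (6.49%), against 12.8% of all genes tested. The largest steps upward by p were those of Ndufa5, an accessory subunit of the complex I arm that faces the matrix, of Atp5mk, a small ATP synthase subunit, and of Ndufb3 in the membrane arm. Ndufa5 stood at 4.47, 4.53 and 4.44 in the sham arrays and at 4.77, 4.70 and 4.60 in the saline arrays. The groups did not overlap, and the difference was 0.21 ± 0.06 (SE; adjusted p = 0.15). Atp5mk differed by 0.19 (adjusted p = 0.21) and Ndufb3 by 0.17 (adjusted p = 0.24). Cox6b2, a testis isoform, was the lowest by p, at -0.51 ± 0.23 (adjusted p = 0.41).

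Most differences at 2 h lay just above 0. They were positive for 66 of the 77 genes, with a median of 0.07 against -0.04 over all genes tested, a lean that was lost in the authors' unscaled table, where the median was -0.004. Within slides it was carried by 1 pair of arrays. On slide 1, where the ischemic array was steep and the sham array was not, 73 of 77 genes were higher in ischemia, and on slides 2 and 4, where neither was steep, 43 of 77 and 37 of 74 were. The spike-in slope's part in this was not tested.

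At 6 h, when 13.0% of all genes tested differed between saline-treated ischemia and sham, 0 of the 77 genes did (limma). Of the 77, 3 (3.90%) had an unadjusted p under 0.05, against 27.1% of all genes tested. The median difference was -0.02, against -0.09 over all genes tested, and its sign turned to positive in the authors' unscaled table (0.03), with the percentile taken over probes (0.02) and with the medians of the arrays set equal (0.05). It also turned without saline replicate 3 (0.01). Differences were above 0 for 31 genes and below 0 for 46.

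The genes with the smallest p at 6 h were Emc8, Ndufs1 and Cox6a2. Emc8, a subunit of the membrane protein complex of the endoplasmic reticulum and not of complex IV, differed by 0.16 ± 0.06 (SE; adjusted p = 0.15). Ndufs1, the largest core subunit of complex I and carrier of iron-sulfur clusters, stood at 2.66, 2.49 and 2.61 in sham and 2.54, 2.19 and 2.35 with saline. These ranges overlap, with a difference of -0.23 ± 0.10 (adjusted p = 0.18). Cox6a2 stood at 0.00, -0.06 and 0.08 in sham and -0.25, -0.07 and -0.28 with saline. The groups did not overlap, and the difference was -0.21 ± 0.10 (adjusted p = 0.21).

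By complex, the medians at 6 h stayed within 0.05 of 0. They were -0.03 over 32 genes of complex I, -0.04 over 4 of complex II, 0.00 over 5 of complex III, -0.01 over 12 of complex IV and 0.00 over 15 of ATP synthase. Sdhb, the iron-sulfur subunit of complex II, differed by 0.002 ± 0.087 (SE) and Sdhd, one of its membrane anchors, by 0.001 ± 0.079. Cox4i1, the usual isoform of complex IV subunit 4, differed by 0.03 ± 0.06, and Cox4i2, its isoform known to respond to low oxygen in lung, by -0.04 ± 0.10. Atp5f1a and Atp5f1b, the subunits that form the catalytic head of ATP synthase, differed by -0.11 ± 0.08 and -0.06 ± 0.09. Ndufv1, which holds the NADH site, differed by -0.08 ± 0.06, Uqcrc1 by -0.02 ± 0.08, Cox6a1 by 0.08 ± 0.07 and Cox8a by 0.10 ± 0.05. None of these passed. Ndufa4, Ndufa4l2 and Cox7a1 are not analysed here.

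The intervals bound what these arrays leave room for. At 2 h the 95% interval of the difference lay inside a 1.5-fold change either way for 74 of the 77 genes, all but Cox6b2, Cox8b and Cox6c-ps1. At 6 h it did for 75, all but Cox8b and Cox6c-ps1. Over all genes tested the interval lay inside that range for 68.7% at 2 h and 62.9% at 6 h. A p that misses the threshold does not show that a transcript was unaltered, and the samples are bulk tissue, where fewer cells of a type and less RNA per cell cannot be told apart.

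**Figure D2:**
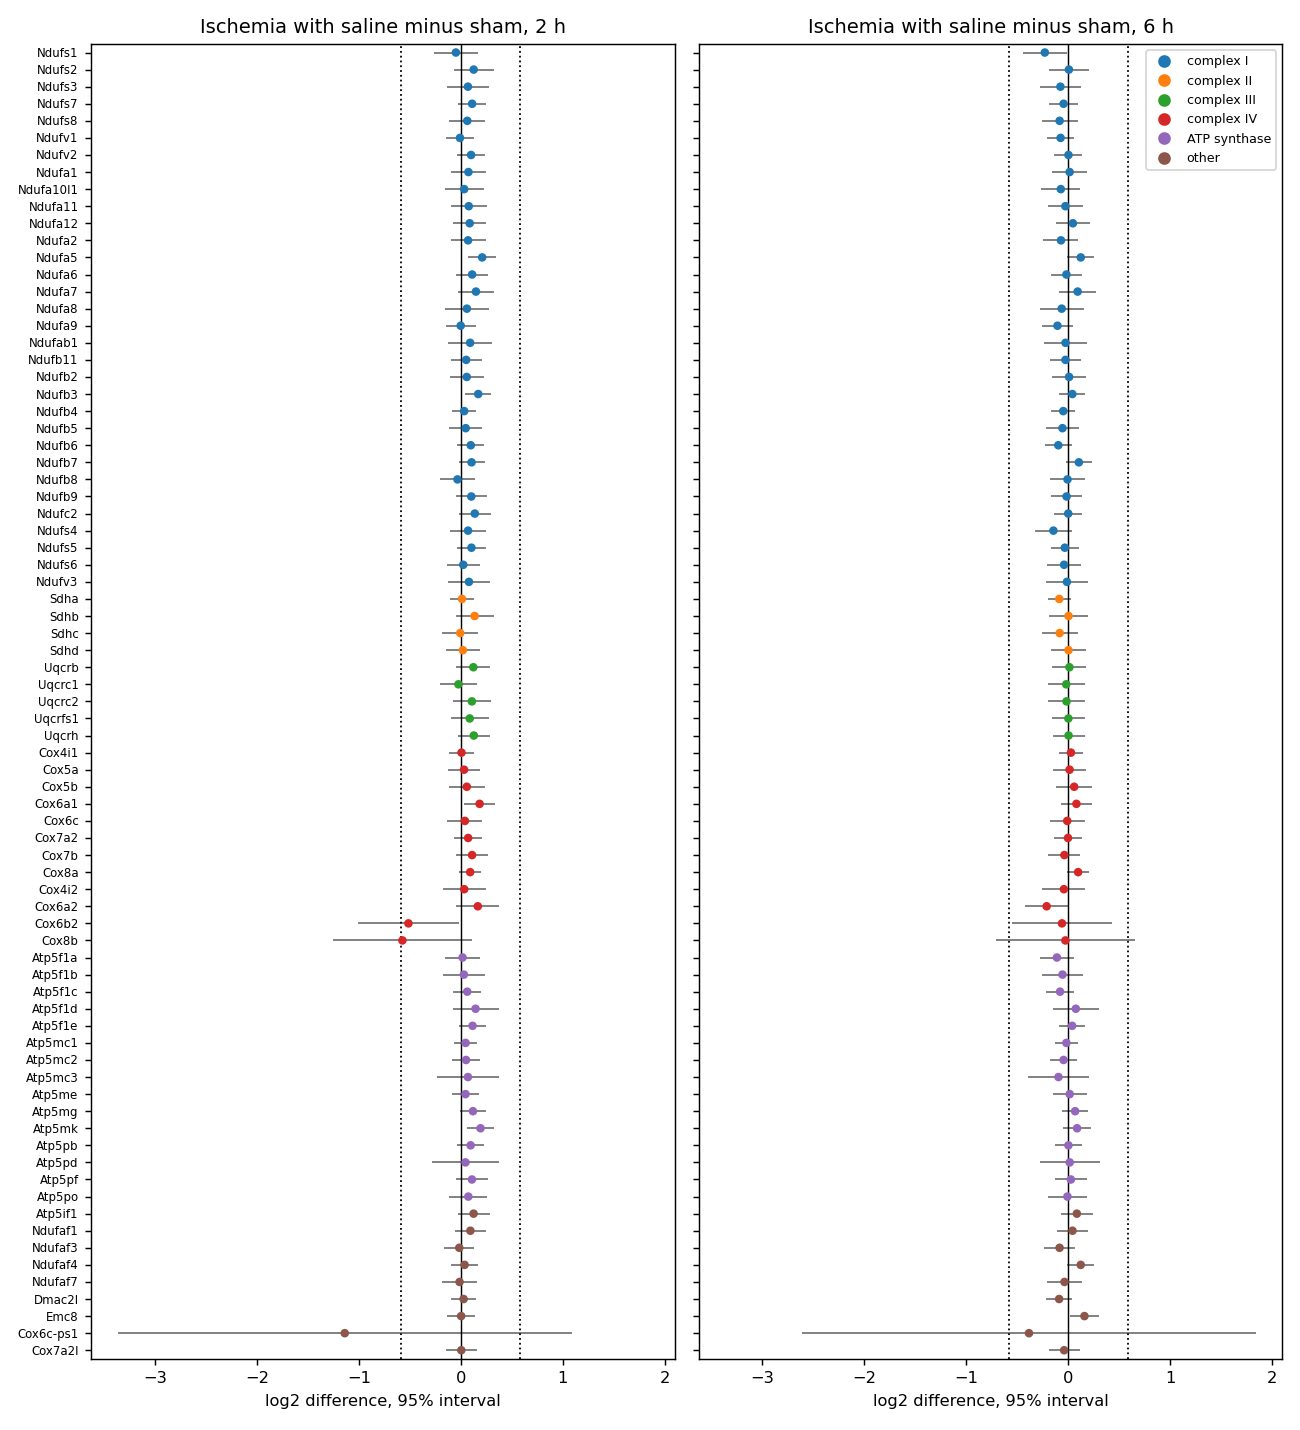
The x axis is the log2 difference of saline-treated ischemia minus sham at 2 h (left) and 6 h (right). Each dot is 1 of the 77 genes, coloured by complex, with its 95% interval, and dotted lines mark a 1.5-fold change. Nearly all intervals lie between the dotted lines, and the dim Cox6c-ps1 has by far the widest.

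EPO-treated against saline-treated ischemia is the direct comparison of the treatment. At 2 h 0 of the 77 genes passed, as did 0% of all genes tested, and 0 of the 77 had an unadjusted p under 0.05 (155 of all genes). Cox6b2 had the smallest p, at 0.49 ± 0.23 (SE; adjusted p = 1.00 in limma). Cox4i1 stood at 4.04, 3.93 and 3.93 with saline and 4.11, 4.03 and 4.07 with EPO, overlapping groups that differed by 0.10 ± 0.06. Uqcrc1, a core subunit of complex III, differed by 0.15 ± 0.08 and Sdhb by -0.11 ± 0.09.

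At 6 h the count was again 0 of 77, and 0% of all genes tested passed (525 had an unadjusted p under 0.05). The 1 gene of the 77 with an unadjusted p under 0.05 was Uqcrfs1, the Rieske iron-sulfur protein of complex III. It stood at 4.49, 4.44 and 4.36 with saline and 4.05, 4.37 and 4.24 with EPO, groups that overlap at 1 array, and differed by -0.21 ± 0.08 (SE; adjusted p = 0.78 in limma). Ndufaf4 differed by -0.13 ± 0.06 and Sdhd by -0.16 ± 0.08.

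Small negative differences were the rule at 6 h with EPO. They were below 0 for 72 of the 77 genes, with a median of -0.06 against 0.02 over all genes tested. On slide 2 they were below 0 for 71 of 77 genes, where the saline array was steep and the EPO array was not, and on slide 3, with neither array steep, for 69 of 77. On slide 5, where both arrays were steep, 58 of 76 genes were above 0 instead, so the lean did not hold within every slide.

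Set against sham at 2 h, EPO-treated ischemia gave 0 genes of 77 past the threshold, where 1.81% of all genes tested passed. An unadjusted p under 0.05 was reached by 7 of the 77 (9.09%), against 13.6% of all genes tested. The smallest p values were those of Ndufa5 at 0.21 ± 0.06 (SE; adjusted p = 0.14 in limma), of Uqcrh, the hinge protein of complex III, at 0.21 ± 0.07, and of Ndufa7 of complex I at 0.24 ± 0.08. The median was 0.10, and -0.02 in the authors' unscaled table. This comparison uses the sham arrays that the saline comparison uses, so likeness between them is partly built in.

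At 6 h 2 of the 77 genes were lower in EPO-treated ischemia than in sham and 0 were higher, where 10.9% of all genes tested were lower. They were Cox6a2 and Ndufs4. Cox6a2 is the heart and skeletal muscle isoform of complex IV subunit 6A, in place of Cox6a1 elsewhere. It stood at 0.00, -0.06 and 0.08 in sham and at -0.55, -0.39 and -0.17 with EPO at 6 h. No array of the EPO group reached the lowest sham array, and the difference was -0.38 ± 0.10 (SE; adjusted p = 0.018 in limma), which is 1.30-fold. The call was lost when only the compared groups were fitted (adjusted p = 0.13), without the 6 steep arrays (0.061), and without EPO replicate 1 (0.083), EPO replicate 2 (0.058) or sham replicate 3 (0.072).

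Ndufs4 is an accessory subunit at the base of the NADH-oxidising arm of complex I, and its loss in patients causes Leigh syndrome, a disease of early-onset brain lesions. It stood at 0.65, 0.59 and 0.71 in sham at 6 h, at 0.51, 0.54 and 0.45 with saline, and at 0.27, 0.41 and 0.45 with EPO. Sham stood apart from both ischemic groups, and the difference of EPO from sham was -0.27 ± 0.08 (SE; adjusted p = 0.039 in limma), or 1.21-fold. That call held in 9 of 22 alternative settings and was lost in all but 1 of the 6 in which an array was left out. Against saline at 6 h Ndufs4 differed by -0.13 ± 0.08 (adjusted p = 0.78). A further 11 genes had an unadjusted p under 0.05, all lower. That makes 13 of the 77 (16.9%), against 32.0% of all genes tested. Among the 11, Ndufs1 differed by -0.28 ± 0.10 (adjusted p = 0.082) and Atp5f1a by -0.21 ± 0.08 (adjusted p = 0.096).

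The groups at 6 h were next set against the same treatment at 2 h. In sham 0 of 77 genes passed between 2 and 6 h, where 0.654% of all genes tested did. Of the 77, 1 (1.30%) had an unadjusted p under 0.05, against 10.4% of all genes tested. The median was 0.00, and 35 genes were above and 42 below 0. In saline-treated ischemia 0 of 77 passed, where 9.08% of all genes tested did. An unadjusted p under 0.05 was reached by 14 (18.2%, against 23.7% of all genes tested), of which 11 were lower. The median there was -0.09 against -0.08 over all genes tested, and 0.01 in the authors' unscaled table. By p, Cox6a2 came first, at -0.32 ± 0.10 (SE; adjusted p = 0.068 in limma), then Dmac2l at -0.18 ± 0.06 (0.075) and Atp5f1e, the epsilon subunit of ATP synthase, at -0.18 ± 0.06 (0.093).

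In EPO-treated ischemia 14 of the 77 genes fell between 2 and 6 h and 0 rose, where 8.58% of all genes tested fell. Differences were below 0 for 72 of the 77, with a median of -0.17 against -0.01 over all genes tested. Of the 77, 38 (49.4%) had an unadjusted p under 0.05, all lower, against 29.1% of all genes tested in either direction. The median stayed negative under every alternative run, between -0.23 and -0.07. All 32 tested genes of complex I, 4 of complex II, 5 of complex III and 15 of ATP synthase were below 0. So were 10 of 12 of complex IV. With saline over the same time 67 of the 77 genes were below 0. They took in all 32 of complex I, all 4 of complex II and 3 of 5 of complex III. Of ATP synthase 13 of 15 were below 0 with saline, and of complex IV 9 of 12.

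**Figure D3:**
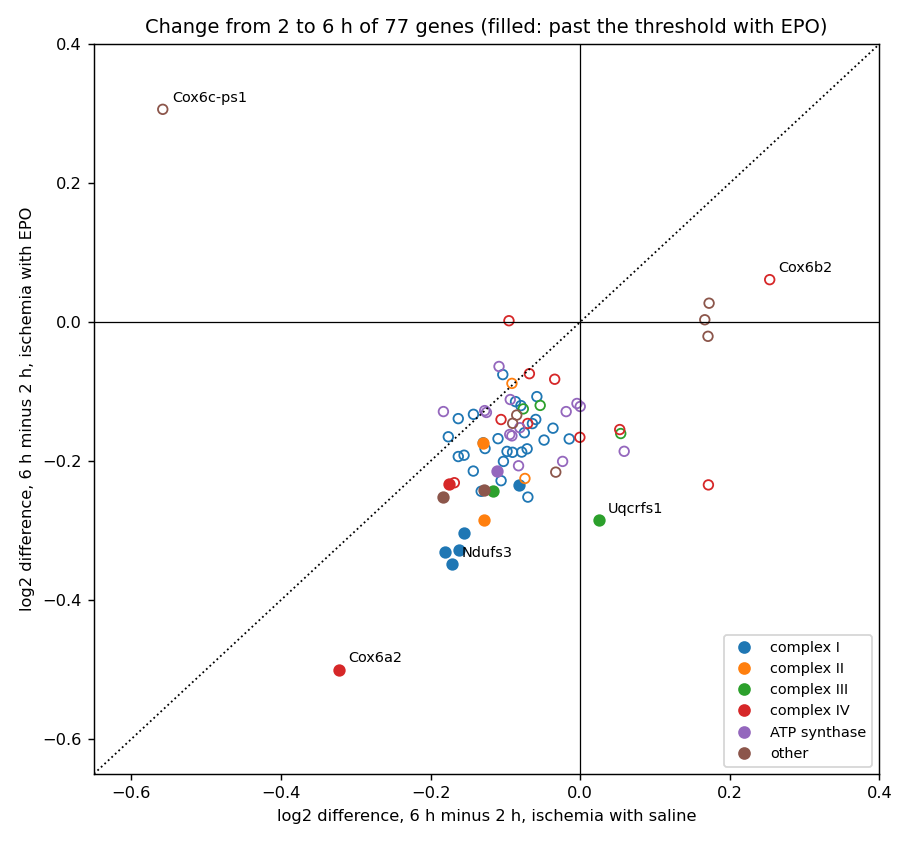
Each circle is 1 of the 77 genes. The x axis is its log2 difference of 6 h minus 2 h in saline-treated ischemia, the y axis the same with EPO, the dotted line marks equal values, and filled circles are the 14 genes past the threshold with EPO. Most genes lie below the dotted line, and Cox6a2 is the lowest on the y axis.

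Cox6a2 moved most. With EPO it went from 0.12, 0.06 and 0.21 at 2 h to -0.55, -0.39 and -0.17 at 6 h. The groups did not overlap, and the fall was -0.50 ± 0.10 (SE; adjusted p = 0.0057 in limma), or 1.41-fold. In the other groups at 2 h it stood at -0.01, -0.18 and 0.05 in sham and at 0.21, 0.13 and 0.01 with saline. This fall was past the threshold in 21 of 22 alternative settings, and missed it when only the EPO groups were fitted (adjusted p = 0.14). Cox6a1 is the brain's usual isoform, and with EPO it stood at 7.50, 7.31 and 7.45 at 2 h and 7.25, 7.18 and 7.42 at 6 h, which overlap.

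Since Cox6a2 is a muscle isoform that parvalbumin interneurons also carry, markers of both were read beside it. Of the 6 interneuron markers listed 1 changed with EPO between 2 and 6 h, Pvalb, which codes for parvalbumin and fell by 0.66 ± 0.13 (SE; adjusted p = 0.0070 in limma). Gad1 (0.22), Gad2 (0.27), Slc32a1 (0.14), Sst (0.01) and Vip (-0.34) did not pass, and the list's median was 0.08. Over this time 8.58% of all genes tested fell with EPO and 5.77% rose. Pvalb went from 3.01, 2.90 and 2.45 to 1.90, 2.10 and 2.38, and in sham at 6 h it stood at 2.89, 2.86 and 2.81. With saline at 6 h Pvalb stood at 2.41, 2.52 and 2.38, and its change there from 2 h was -0.24 ± 0.13 (adjusted p = 0.35). The summed level of the list (log2 of its added signals) ran from 6.06 to 6.18 over the EPO arrays at 2 h and from 5.99 to 6.11 at 6 h. Of 5 muscle markers tested, 3 of them well above background on all arrays, 1 changed, Actn3, which rose by 0.68 ± 0.08. The summed level ran from 0.39 to 0.61 and from 0.37 to 0.83. With saline over the same time Actn3 rose too, by 0.37 ± 0.08 (adjusted p = 0.011). The part of either cell type in the fall of Cox6a2 was not tested.

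Complex I gave 5 of the 14. Ndufs3 and Ndufs8, which are core subunits, fell by 0.35 ± 0.09 (SE; adjusted p = 0.030 in limma) and 0.30 ± 0.08 (0.029). Ndufs3 went from 4.69, 4.56 and 4.44 to 4.08, 4.24 and 4.33. Ndufs8 went from 2.01, 2.07 and 2.01 to 1.64, 1.71 and 1.81, and its second probe gave -0.20 (adjusted p = 0.17). Neither gene's groups overlap. Ndufb2 and Ndufb11 belong to the membrane arm. Ndufb2 went from 4.50, 4.56 and 4.66 to 4.12, 4.24 and 4.36, a fall of 0.33 ± 0.08 (adjusted p = 0.015). Ndufb11 went from 4.22, 4.14 and 4.04 to 3.82, 3.94 and 3.94, a fall of 0.23 ± 0.07 (adjusted p = 0.048). The fifth was Ndufs4, which went from 0.58, 0.79 and 0.74 to 0.27, 0.41 and 0.45, a fall of 0.33 ± 0.08 (adjusted p = 0.022). In all 3 of these the 6 h arrays lay below every 2 h array.

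Complex II has 4 subunits and also serves the citric acid cycle as succinate dehydrogenase. Its flavoprotein Sdha went from 5.39, 5.43 and 5.34 to 5.16, 5.22 and 5.26, a fall of 0.17 ± 0.05 (SE; adjusted p = 0.048 in limma). The anchor Sdhc went from 2.75, 2.78 and 2.71 to 2.42, 2.40 and 2.57, a fall of 0.28 ± 0.08 (adjusted p = 0.039). Both were lower on every 6 h array than on any 2 h array. Sdhd went from 4.19, 4.17 and 4.06 to 3.83, 3.99 and 3.92, without overlap, and did not pass, at -0.23 ± 0.08 (adjusted p = 0.086). Sdhb overlapped between the times, with 3.73, 3.49 and 3.83 at 2 h and 3.47, 3.61 and 3.70 at 6 h.

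Complex III gave Uqcrfs1 and Uqcrh. Uqcrfs1 went from 4.55, 4.50 and 4.47 to 4.05, 4.37 and 4.24, a fall of 0.28 ± 0.08 (SE; adjusted p = 0.031 in limma). In saline-treated ischemia it stood at 4.45 and 4.36 at 2 h, where the fit dropped replicate 3 because its spot was an outlier, and at 4.49, 4.44 and 4.36 at 6 h. The difference there was 0.02 ± 0.09 (adjusted p = 0.89). Of the 77 genes Uqcrfs1 had the smallest p for a difference in time course between EPO and saline, which did not pass (adjusted p = 0.92 in limma). Uqcrh went from 5.79, 5.84 and 5.87 to 5.44, 5.66 and 5.67, a fall of 0.24 ± 0.07 (adjusted p = 0.046).

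Complex IV gave Cox7a2 beside Cox6a2. Cox7a2, the liver-type isoform of subunit 7A found in most tissues, stood at 4.27 and 4.32 at 2 h, where the fit dropped replicate 3, and at 4.0005, 4.02 and 4.16 at 6 h, a fall of 0.23 ± 0.07 (SE; adjusted p = 0.049 in limma). Cox4i1 was at -0.17 ± 0.06 (adjusted p = 0.075), and Cox4i2 at 0.00 ± 0.10. From ATP synthase came Atp5f1c, the gamma subunit that turns inside the catalytic head. It went from 4.37, 4.40 and 4.42 to 4.15, 4.18 and 4.21, a fall of 0.21 ± 0.06 (adjusted p = 0.047). The groups did not overlap. Uqcrh, Cox7a2, Atp5f1c and Ndufb11 are named beyond the naming rule, after their values were seen.

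The last of the 14 are no subunits. Ndufaf3, a complex I assembly factor, went from 2.06, 2.21 and 2.06 to 1.88, 1.85 and 1.88, a fall of 0.24 ± 0.07 (SE; adjusted p = 0.038 in limma). Dmac2l, a mitochondrial protein once counted as the s subunit of ATP synthase, went from -0.44, -0.40 and -0.27 to -0.60, -0.68 and -0.58, a fall of 0.25 ± 0.06 (adjusted p = 0.013). Neither gene's groups overlap.

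**Figure D4:**
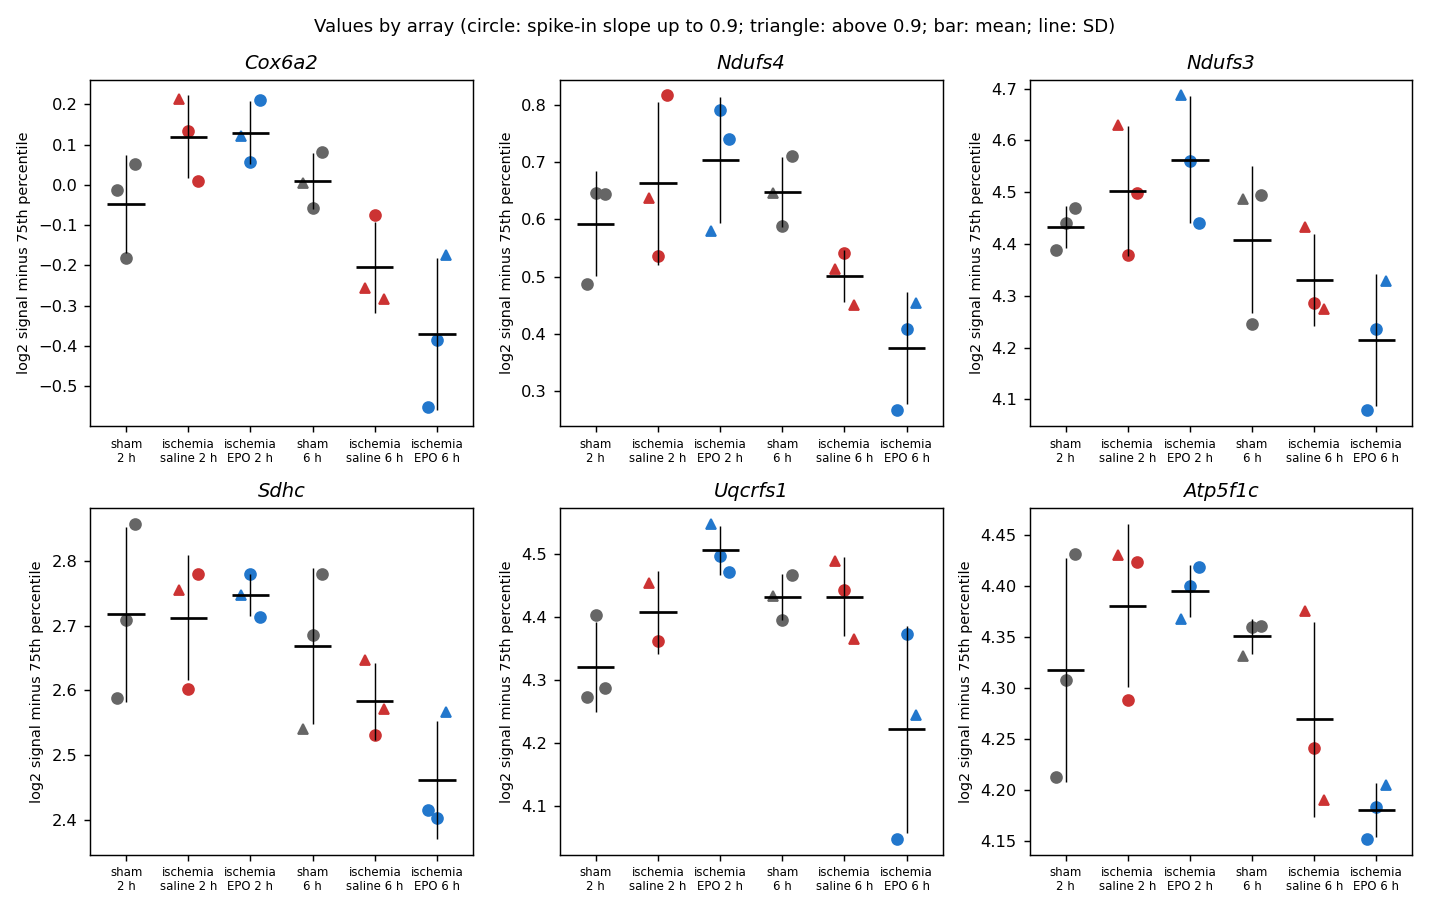
Log2 signal minus the array's 75th percentile (y axis) of 6 genes, by group (x axis). Circles and triangles are arrays (triangles have a spike-in slope above 0.9), the bar is the group mean and the line 1 SD. Every EPO array at 6 h lies below every EPO array at 2 h in all 6 genes, and Uqcrfs1 with saline stays between 4.36 and 4.49 at both times. The 6 genes were chosen from those that fell with EPO over this time, so their separation is partly built in. Of the 77 genes tested, 48 had no overlap between the EPO groups at 2 h and 6 h. The same count over all genes tested is not given here.

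The count of 14 depends on the fit and on single arrays. It was 0 when only the EPO groups were fitted, 1 in the authors' unscaled table, 1 without the steep arrays and 9 with a replicate block, and it was 2 without EPO replicate 1 at 6 h, 3 without replicate 2 at 6 h, 3 without replicate 2 or 3 at 2 h and 4 without replicate 1 at 2 h. It rose to 20 with an intensity trend and robust variances. Within the slides that hold an EPO array of each time, 71 of 77 genes were lower at 6 h on slide 3 (neither array steep) and 73 of 77 on slide 5 (both steep), with medians of -0.17 and -0.11 against -0.05 and -0.03 over all genes tested.

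Whether the time course differed between treatments was tested as an interaction. For EPO by time 0 of the 77 genes passed, as did 0% of all genes tested. Against 2.39% of all genes tested, 2 of the 77 (2.60%) had an unadjusted p under 0.05. These were Uqcrfs1 at -0.31 ± 0.11 (SE; adjusted p = 0.92 in limma) and Ndufaf4 at -0.19 ± 0.09 (0.92). The 14 genes that fell with EPO are thus not shown to behave differently with saline. For ischemia by time 0 of 77 passed, where 1.93% of all genes tested did. An unadjusted p under 0.05 was reached by 2 (2.60%), against 14.3% of all genes tested. The 2 were Cox6a2 at -0.38 ± 0.14 (adjusted p = 0.26) and Ndufb6 at -0.20 ± 0.09 (adjusted p = 0.39).

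Array by array, the median deviation of the 77 genes from their own means was read next. It was 0.10, 0.07 and 0.06 for the EPO arrays at 2 h and -0.14, -0.09 and -0.03 at 6 h. In the saline groups it was 0.11, 0.02 and 0.06 at 2 h and 0.01, -0.02 and -0.07 at 6 h, and in sham -0.08, 0.01 and 0.06 and then -0.02, -0.01 and 0.00. Neither the EPO groups nor the saline groups overlapped between the times, and the sham groups did. Over all genes tested the EPO arrays stood at -0.02, 0.03 and 0.06 and then at 0.02, -0.01 and -0.05, which overlap.

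**Figure D5:**
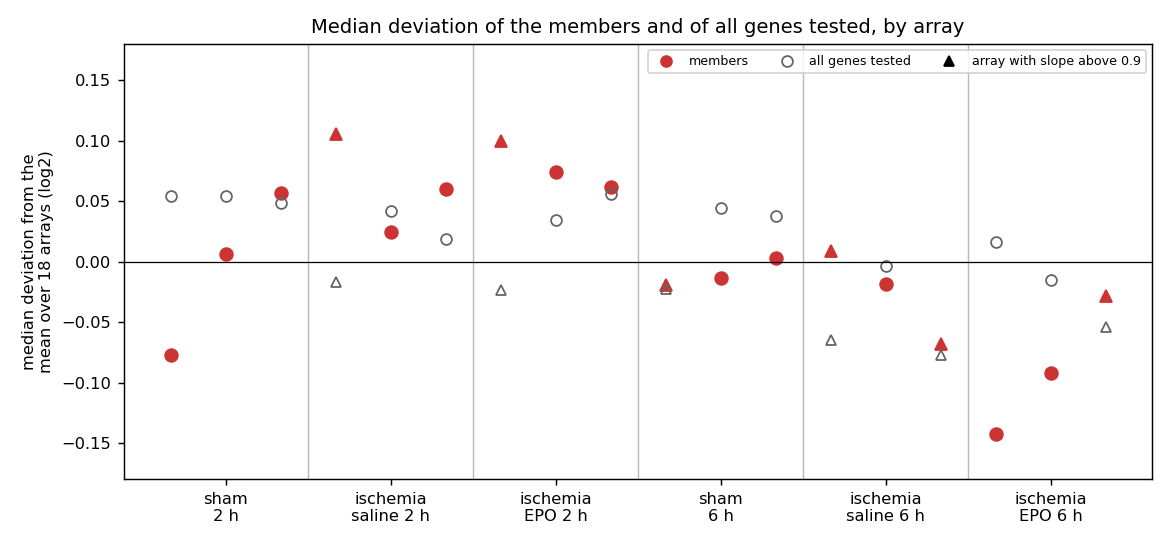
For each of the 18 arrays (x axis, 3 per group) the y axis gives the median log2 deviation of the 77 genes (filled) and of all genes tested (open) from their means over all arrays. Triangles are arrays with a spike-in slope above 0.9. The filled points of EPO lie between 0.06 and 0.10 at 2 h and between -0.14 and -0.03 at 6 h.

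Genes that work with the chain were counted from lists, to be read against the 8.58% of all genes tested that fell with EPO between 2 and 6 h and the 5.77% that rose. With saline over the same time 4.49% fell and 4.59% rose. Of 31 electron carriers and assembly factors tested, 3 fell with EPO between 2 and 6 h and 0 rose, with a median of -0.14. They were Sdhaf3, which helps to mature complex II (-0.50 ± 0.07, SE; adjusted p = 0.00095 in limma), Atpaf2, an assembly factor of ATP synthase (-0.27 ± 0.07), and Timmdc1 of complex I (-0.31 ± 0.09). Sdhaf3 was the 1 gene of this list that fell with saline over the same time (-0.33 ± 0.07, adjusted p = 0.014). Of 23 genes of the citric acid cycle and pyruvate use, 2 fell with EPO, Mpc1, a subunit of the pyruvate carrier (-0.32 ± 0.06), and Fh, fumarase (-0.25 ± 0.06), and 0 changed with saline. Of 14 mitochondrial carriers and uncoupling genes 2 fell with EPO, Slc25a27 (-0.29 ± 0.08) and Slc25a11, the carrier of oxoglutarate (-0.26 ± 0.08), and 0 changed with saline. With counts this small, none of these lists is set apart here from all genes tested.

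Regulators of mitochondrial genes did not all go one way. Of 19 tested, 1 rose and 2 fell with EPO between 2 and 6 h. Gabpa, the ETS factor that binds the letters searched above, rose by 0.45 ± 0.13 (SE; adjusted p = 0.035 in limma), and it rose by 0.47 ± 0.13 with saline (0.036) together with its partner Gabpb1 (0.31 ± 0.08). Nrip1, a corepressor of oxidative genes, fell by 0.42 ± 0.08 with EPO and Tfb2m, a mitochondrial transcription factor, by 0.21 ± 0.06. Against sham at 6 h, 6 of the 19 were lower with EPO, among them Nrip1 (-0.56 ± 0.08) and Tefm, the elongation factor of mitochondrial transcription (-0.40 ± 0.08), where 10.9% of all genes tested were, and 2 were lower with saline, where 6.81% were.

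Glycolysis genes that passed against sham at 6 h were all higher. Of 22 tested, 3 were higher in saline-treated ischemia than in sham at 6 h and 0 were lower, where 6.18% of all genes tested were higher. They were Slc16a3, a lactate exporter (1.60 ± 0.17, SE; adjusted p = 6.7e-05 in limma), Slc16a1, another lactate transporter (0.53 ± 0.07), and Ldha, lactate dehydrogenase A (0.24 ± 0.07). With EPO against sham these 3 and the glucose transporter Slc2a1 (0.33 ± 0.08) were higher, 4 of 22, where 8.22% of all genes tested were. The list's median was 0.01 in both comparisons, and 0 of the 22 were lower with EPO.

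Markers of neurons, cells with a high demand for ATP, were read beside these values. Of 11 neuronal markers 3 fell with EPO between 2 and 6 h (Neurod6, Snap25 and Nefm) and 4 fell with saline (those 3 and Tubb3). Among all genes tested 8.58% fell with EPO and 4.49% with saline. The list's summed level ran from 7.96 to 7.998 over the EPO arrays at 2 h and from 7.65 to 7.81 at 6 h, and from 7.94 to 8.08 and 7.77 to 7.79 with saline. Snap25, a synaptic vesicle fusion protein, fell by 0.31 ± 0.07 with EPO (SE; adjusted p = 0.010 in limma) and by 0.33 ± 0.07 with saline (0.0086).

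Markers of other cell types passed the threshold over the same time with EPO, when 8.58% of all genes tested fell and 5.77% rose. With saline 4.49% fell and 4.59% rose. Of the 9 markers listed for microglia and macrophages, 4 fell and 2 rose, among them Cd14, a receptor for bacterial products (1.72 ± 0.18, SE; adjusted p = 8.1e-05 in limma), and Tmem119, a marker of resting microglia (-1.35 ± 0.15). Their summed level ran from 4.19 to 4.28 at 2 h and from 3.79 to 3.997 at 6 h, without overlap. Of 10 endothelial markers 3 rose with EPO, Flt1 (1.30 ± 0.33), Kdr (0.88 ± 0.15) and Vwf (0.63 ± 0.15). Slco1a4, a transporter of the blood-brain barrier, was the 1 that fell (-1.01 ± 0.13). With saline 1 rose, Kdr (0.52 ± 0.15), and 1 fell, Slco1a4 (-1.29 ± 0.13), and in sham 0 passed. The summed level ran from 3.66 to 4.01 and from 4.06 to 4.32 with EPO. In sham it ran from 3.77 to 3.96 and from 4.03 to 4.34, and with saline from 3.72 to 3.96 and from 3.95 to 4.06. Of 9 mural cell markers 1 rose and 1 fell with EPO, of 10 striatal markers 1 rose, and of 4 neutrophil markers 1 rose. With EPO 0 of 8 astrocyte, 11 oligodendrocyte and 4 red cell markers passed. The part of any of these cells, neurons included, in the values above was not tested.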

How the data were processed

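Cortex RNA of 18 samples was measured on one-colour rat arrays. Per the file headers and the submitters' processing notes, the authors' scanner files come from Agilent Feature Extraction 9.1.1.1 and give a background-subtracted intensity per spot. The deposited series values of the authors are log2 intensity, equal to the unscaled log2 processed signal (largest difference 5.3e-14). Genome builds are not given in the sources used here.

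Spots of a probe were averaged without outlier spots, and the 75th percentile of each array's non-control spots was subtracted. A probe entered the test (28959 did) if some group had it well above background throughout and each group had 2 or more values. Probes took gene names by accession (10735), symbol (5571) or synonym (3729). Group means over all 18 arrays were fitted in limma 3.58.1 (R 4.3.3, statmod 1.5.0; 12 residual degrees of freedom, two-sided, Benjamini-Hochberg over all probes tested, threshold 0.05). The fit was run on simulated data with noise drawn independently for each probe and array. That run cannot speak to deviations that the probes of an array share. Where an array had no value the fit dropped it. The number of arrays limits the precision, and 4 probes were saturated on 1 array.

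The members and lists were chosen with earlier results of these data known. By rule, values are given for up to 8 called genes per direction, the 3 of smallest p where none was called, and fixed subunits. Replicate numbers are in the labels. Same-numbered deviations correlated above 0.1 in all 3 pairs only for EPO against saline at 2 h (0.89, 0.65 and 0.63), where the block left the count at 0.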

Additional observations from a re-analysis of the deposited data

How the results depend on the processing

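Of the 254 counts recomputed, 226 stayed within 1.5 times of the reported count, and 1416 of 1599 values of single genes kept their direction and side of the threshold. The counts of 0 for ischemia with saline against sham, EPO against saline, EPO against sham at 2 h, sham over time and both interactions stayed at 0 in every alternative run. The count of 2 for EPO against sham at 6 h became 1 with quantile normalization, the authors' table, no filter, the percentile over probes or equal medians, and 0 with the compared groups only or without the 6 steep arrays, and ran from 0 to 2 with 1 array left out. The count of 14 over time with EPO became 6 with normexp, 5 with quantile normalization, 1 in the authors' table, 4 with no filter, 0 with the compared groups only, 1 without steep arrays and 3 with equal medians, rose to 20 with an intensity trend and robust fit, and ran from 2 to 14 with 1 array left out. With the replicate block it was 9, of which 8 were among the 14, and no other count moved under the block. The numbers are not shown to pair these groups, since their correlations were -0.86, 0.23 and -0.82. Over time with saline the count of 0 became 1 with probes above background on all arrays, 3 with an intensity trend and robust fit, and 1 with the spike-in class as block. The cause was not tested. Leaving out steep arrays leaves 1 saline array at 6 h, assumed to vary like the others. Percentile over probes, kept outlier spots and equal medians were chosen after seeing the data.

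Over all probes the time course with EPO gave 1333 higher and 2037 lower, and 963 and 278 in the authors' table. Ischemia against sham at 6 h gave 1396 and 1809, against 854 and 416 there, 1301 and 486 with equal medians, 1464 and 1135 with quantile normalization and 1607 and 1213 with the percentile over probes. Over time with saline the split was 1041 and 1104, against 913 and 189 in that table, 839 and 385 with equal medians and 1069 and 736 with quantile normalization. At 2 h against sham, equal medians gave 296 and 31 with saline (260 and 100 otherwise) and 304 and 26 with EPO (291 and 96 otherwise, and 114 and 64 in the authors' table). The authors' table moved the median of all probes from -0.07 to -0.18 in EPO against sham at 2 h, from -0.11 to 0.00 over time with saline and from -0.01 to 0.11 in ischemia by time.

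Values that changed sign, none past the threshold, were Atp5f1e in EPO by time (-0.013 quantile, -0.046 equal medians), Cox4i2 in EPO against saline at 6 h (-0.015) and EPO by time (-0.0025, both equal medians), Cox6b2 in EPO against saline at 6 h (-0.14, quantile), Cox6c-ps1 in EPO by time (from -0.017 without EPO replicate 1 at 2 h to 1.81 without saline replicate 1 at 2 h), Cox7a2 in sham (0.022, normexp), Cox8b in EPO against sham at 2 h (0.10 quantile, and from -0.35 without sham replicate 2 to 0.014 without replicate 3), Ndufaf4 in EPO against saline at 6 h (0.014, mean of its probes) and Ndufs1 in EPO against sham at 2 h (0.045, equal medians).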
